A study of Mus musculus with 9 samples.

Results

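Germinal vesicle (GV) oocytes were compared with female germline stem cells (FGSCs) over all autosomal genes with FPKM > 1 in at least 1 of the 2 cell types. FPKM is the number of sequenced fragments of a gene, corrected for the length of its transcripts and for the size of the library. The rule took 13668 genes of the 34953 autosomal genes listed, out of 37980 listed in all. GV oocytes and FGSCs were each given by 1 FPKM per gene, which the authors had pooled over 2 libraries, so no spread between replicates could be computed and every difference below describes these pooled libraries without a test. The series also holds MII oocytes (2 libraries) and E12.5 PGCs (3 libraries), likewise pooled. The labels describe all 9 libraries as C57BL/6, female and not passaged. Per the study's methods, the GV oocytes were fully grown oocytes of young adult females primed with gonadotropin, with their cumulus cells removed by hyaluronidase. FGSCs were sorted for green fluorescence from ovaries of Mvh-GFP mice (Mvh-cre;ROSA mT/mG) a few days old, in which a Cre driven by the germ cell gene Mvh (Ddx4) marks the cells, and every descendant of a cell that once expressed the Cre keeps the mark.

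A GV oocyte is arrested in prophase of the first meiotic division. During growth it has laid down the zona pellucida, and it stores messenger RNAs and proteins that carry the egg through meiotic maturation and the first cleavages. FGSCs have been described as mitotically dividing germ cells of the postnatal ovary, and early germ cells in general carry an RNA-binding and pluripotency-related program that growing oocytes modify or shut down.

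Within the set, 9485 genes exceeded FPKM 1 in both cell types, 2045 did so in GV oocytes alone and 2138 in FGSCs alone. The log2 ratio, log2((GV oocytes + 1)/(FGSCs + 1)), had a median of -0.04, with quartiles of -1.10 and 1.14, and ran from -8.27 to 9.41. It was 1 or more (2-fold or more higher in GV oocytes) in 3837 genes, 28.1% of the set, and -1 or less in 3788 genes, 27.7% of the set. At 4-fold, 1721 genes (12.6%) were higher and 1285 genes (9.40%) were lower in GV oocytes. These 4 percentages are the background for every count of list members below, where higher and lower mean by 2-fold or more in GV oocytes and measured members are those in the set. A measured member at or under 1 FPKM in 1 cell type entered the set through the other, so its ratio could only favour the other. FPKM summed over all listed genes to 560962 in GV oocytes and 417955 in FGSCs. When both columns were scaled to the same sum, the median of all genes moved by -0.35, and 3045 genes were higher and 4858 lower by 2-fold, so that 38.5% of the genes past 2-fold were higher in GV oocytes, against 50.3% as deposited. In the set, 5951 genes (43.5%) shared their listed span with another gene, which leaves their values less certain. Among the genes described below these include Cd81, Cd9, Gnas, Adcy3, 2410004A20Rik, Nlrp5, Tcl1, Pou5f1, Dnd1, Sox2, Dnmt3a, Dnmt3l, Tet1, Igf2bp1, Pabpc4, Cpeb1, Zfp36l1, Cnot3, Dgcr8, Sycp3, Psmc3ip, Trip13, Itga6, Cdc20, Cdk4, Ube2c, Gclm, Hspa8, Mest, Igf2, H19, Meg3, H13, Hoxc9, Lamb1, Ctnnb1 and Malat1. Genes just inside the threshold were Ccdc39 (0.13 FPKM in GV oocytes and 1.00 in FGSCs) and Gm17105 (0 and 1.00, in the same order), and just outside it lay Mmp7 (1.00 and 0) and Gm14447 (0.08 and 1.00).

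**Figure D1:**
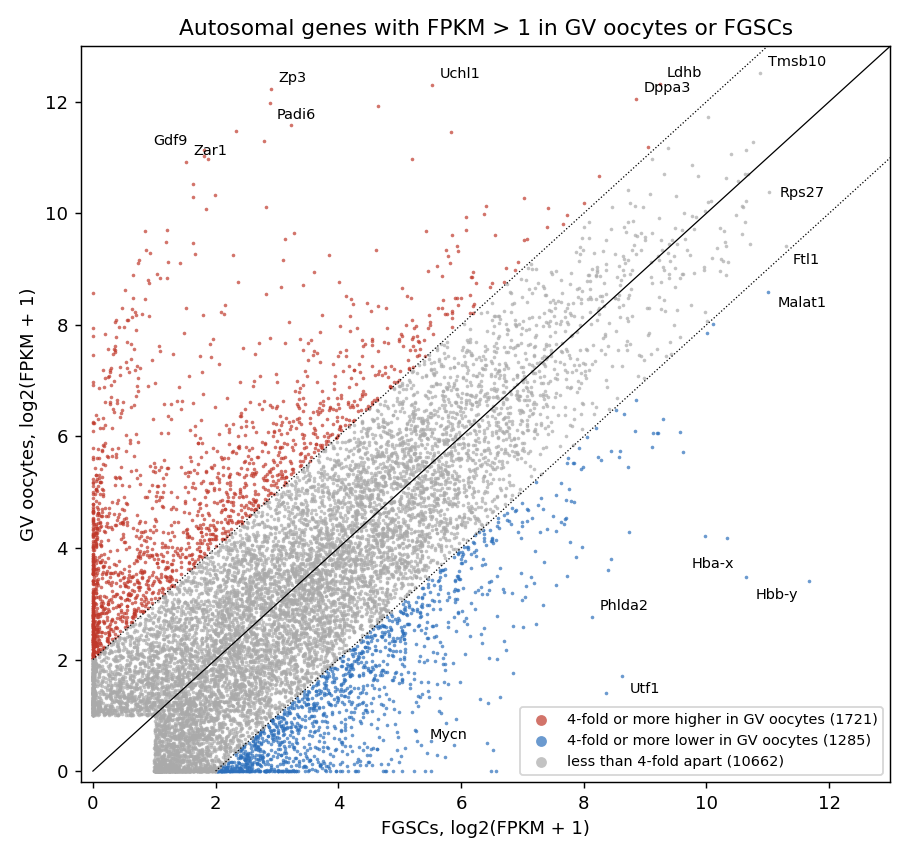
Level of each of the 13668 genes in GV oocytes (vertical axis) and in FGSCs (horizontal axis), both as log2(FPKM + 1), with 1 point per gene. The solid line marks equal levels and the dotted lines 4-fold; 1721 genes lie above the upper dotted line and 1285 below the lower one, and Zp3, Zar1 and Padi6 stand far from the globin Hbb-y and from Utf1 and Mycn.

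The labels were checked against marker genes. The 8 oocyte markers Zp1, Zp2, Zp3, Gdf9, Figla, Nobox, Ooep and Mos lay between 266 and 4780 FPKM in GV oocytes and between 0.29 and 6.49 FPKM in FGSCs. The 5 germ cell markers Ddx4, Dazl, Pou5f1, Dppa3 and Mael were present in both, at 31.9 to 4211 FPKM in GV oocytes and 10.6 to 462 FPKM in FGSCs. Markers of other cells of the ovary and of blood were mostly higher in FGSCs and are given with the genes they move with.

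The largest differences in favour of GV oocytes were in genes of the egg. Zar1, an RNA-binding protein needed for the passage from egg to embryo, was at 1942 FPKM in GV oocytes and 1.86 FPKM in FGSCs, the highest log2 ratio of the set (9.41). H1foo, the linker histone of oocytes, was at 2248 FPKM in GV oocytes and 2.49 in FGSCs. Npm2, a nucleoplasmin that remodels sperm chromatin after fertilization, was at 2017 FPKM in GV oocytes and 2.66 in FGSCs. Padi6, an arginine deiminase family member of the cytoplasmic lattices, was at 4040 FPKM in GV oocytes and 6.37 in FGSCs. Bcl2l10, a Bcl2-family protein, was at 824 FPKM in GV oocytes and 0.80 in FGSCs. Miox, an enzyme that oxidizes myo-inositol, was at 650 FPKM in GV oocytes and 0.81 in FGSCs. Among the 15 genes with the largest ratios were also Gdf9, Zp1, Zp2, Zp3 and E330034G19Rik, described with their families, and Gm15698, Pkd2l2, Gm16211 and mmu-mir-703, for which no role is given here. Pkd2l2 and mmu-mir-703 shared their span with 1 other listed gene and Gm16211 with 3 others, so that reads of these genes may not have been told apart from those of their neighbours.

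**Figure D2:**
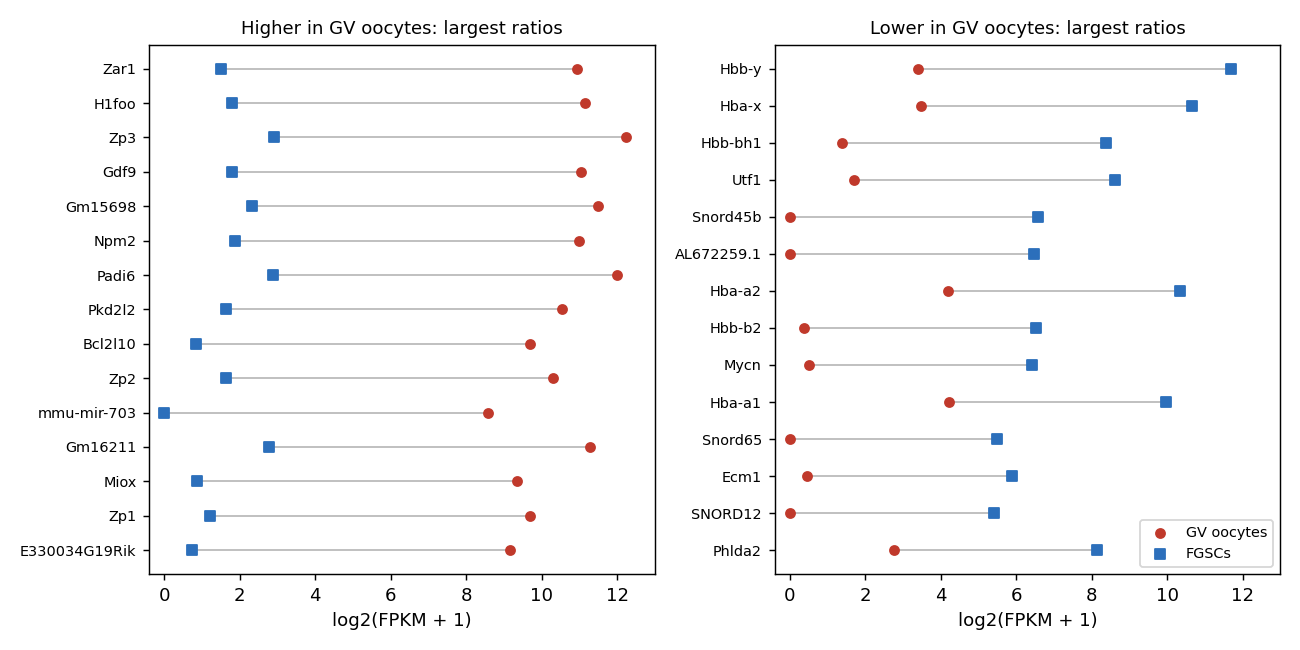
Levels, as log2(FPKM + 1), of genes whose log2 ratios were largest in each direction where the higher cell type had FPKM of at least 10. Circles are GV oocytes and squares FGSCs, 1 pooled value each; the left panel runs from Zar1 to E330034G19Rik and the right panel from Hbb-y to Phlda2, and Phlda2 has the smallest distance of the pairs shown, with a log2 ratio of -5.38.

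Promoter sequences are shown for 3 of these genes and, for comparison, for Utf1 and Mycn, the protein-coding genes other than globins with the largest ratios in favour of FGSCs. Each line gives the 200 bases before the RefSeq transcription start in build GRCm38.p6, on the strand of the gene. Capitals mark the E-box CANNTG, the motif of basic helix-loop-helix factors such as Figla, which reads as the same motif on both strands. The windows lie at chr5:135979905-135980104 (plus strand, Zp3), chr5:72581085-72581284 (minus strand, Zar1), chr4:140742644-140742843 (minus strand, Padi6), chr7:139943656-139943855 (plus strand, Utf1) and chr12:12941837-12942036 (minus strand, Mycn).
Zp3: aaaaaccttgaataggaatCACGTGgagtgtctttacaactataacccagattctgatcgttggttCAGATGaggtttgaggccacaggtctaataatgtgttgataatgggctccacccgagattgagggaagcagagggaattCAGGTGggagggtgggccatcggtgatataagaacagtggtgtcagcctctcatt
Zar1: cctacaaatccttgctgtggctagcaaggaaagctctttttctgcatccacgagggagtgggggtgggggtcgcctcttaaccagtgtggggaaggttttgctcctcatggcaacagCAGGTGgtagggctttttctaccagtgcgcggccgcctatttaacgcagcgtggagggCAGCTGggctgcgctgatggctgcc
Padi6: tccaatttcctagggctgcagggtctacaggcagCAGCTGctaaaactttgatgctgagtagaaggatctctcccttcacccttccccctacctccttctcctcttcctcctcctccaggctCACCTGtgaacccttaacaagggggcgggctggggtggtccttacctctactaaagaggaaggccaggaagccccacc
Utf1: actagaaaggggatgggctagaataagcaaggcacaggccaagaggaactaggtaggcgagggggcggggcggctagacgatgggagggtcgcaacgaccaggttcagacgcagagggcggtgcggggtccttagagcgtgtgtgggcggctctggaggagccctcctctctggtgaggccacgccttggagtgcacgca
Mycn: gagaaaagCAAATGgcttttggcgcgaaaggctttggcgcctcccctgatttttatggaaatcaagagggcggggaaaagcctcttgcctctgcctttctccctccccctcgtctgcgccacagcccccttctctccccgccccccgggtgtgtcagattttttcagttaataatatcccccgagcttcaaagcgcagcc
The E-box occurred 3 times in the Zp3 window, with first bases 181, 134 and 55 bases before the start, 2 times each in the windows of Zar1 and Padi6, once in that of Mycn and not in that of Utf1. Over the 27025 promoters of the table, 57.9% of such windows of 200 bases held at least 1 E-box. TAATTG and TATAAA, searched on both strands, were in none of the 5 windows and in 5.74% and 10.6% of all windows, and no 2 of the 3 motifs overlapped here. Promoters were listed for 70.9% of the genes 4-fold or more higher in GV oocytes, 70.9% of those 4-fold or more lower and 73.5% of the set. A comparison of motif shares between these groups is therefore void, since under 80% of the genes had a sequence.

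Genes of the egg coat and of sperm binding were higher in GV oocytes in 9 of 10 members, each by 4-fold or more, with a median log2 ratio of 7.24 against -0.04 for all genes. Zp3, a zona pellucida protein, was at 4780 FPKM in GV oocytes and 6.49 in FGSCs. Zp2 was at 1248 FPKM in GV oocytes and 2.11 in FGSCs, and Zp1 at 829 and 1.32 FPKM in the same order. Oosp1, a secreted oocyte protein, was at 391.7 FPKM in GV oocytes and 0.44 in FGSCs. Folr4 (Juno), the egg receptor for sperm Izumo1, and Astl, the protease that hardens the zona, were named after their values were seen: Folr4 was at 105 FPKM in GV oocytes and 0.64 in FGSCs, and Astl at 271 and 0.29 FPKM. Cd81, a tetraspanin with a role in gamete fusion, was the exception, at 35.2 FPKM in GV oocytes and 147 in FGSCs (log2 ratio -2.04), whereas the related Cd9 was at 244 FPKM in GV oocytes and 43.3 in FGSCs.

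Transcription factors of the oocyte were higher in GV oocytes in 10 of 13 measured members and lower in 1, with a median log2 ratio of 4.61. Figla, which activates the zona pellucida genes, was at 427 FPKM in GV oocytes and 0.88 in FGSCs. Nobox, a homeobox factor needed for the growth of early follicles, was at 285 FPKM in GV oocytes and 0.88 in FGSCs. Sohlh1, a basic helix-loop-helix factor upstream of both, was at 172 FPKM in GV oocytes and 2.34 in FGSCs, but its partner Sohlh2 was at 10.6 FPKM in GV oocytes and 28.4 in FGSCs, the only member lower by 2-fold or more. Obox2 was at 79.2 FPKM in GV oocytes and 0.12 in FGSCs. Obox3 and Obox6 were listed at 0 in both cell types and were outside the set.

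Signals by which the oocyte acts on its follicle were higher in 9 of 13 members and lower in 1 (median log2 ratio 1.89). Gdf9, a TGF-beta family ligand for granulosa cells, was at 2093 FPKM in GV oocytes and 2.49 in FGSCs. Fgf8, which promotes glycolysis in cumulus cells, was at 187 FPKM in GV oocytes and 0.29 in FGSCs. Gja4 (connexin 37), the gap junction protein between oocyte and granulosa cells, was at 298 FPKM in GV oocytes and 3.25 in FGSCs. Gnas, the stimulatory G protein subunit, was at 222 FPKM in GV oocytes and 97.8 in FGSCs. Adcy3, an adenylyl cyclase of the oocyte that sustains meiotic arrest, was at 0.14 FPKM in GV oocytes and 2.35 in FGSCs. Pik3ca and Akt1, of the pathway that governs primordial follicle activation, were each within 2-fold.

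All 8 members of the subcortical maternal complex and its partners, proteins under the egg membrane that early cleavage requires, were 4-fold or more higher in GV oocytes (median log2 ratio 7.29). Besides Padi6, Tle6 was at 2004 FPKM in GV oocytes and 35.9 in FGSCs, and 2410004A20Rik at 1286 and 2.98 FPKM. Zbed3 was at 3905 FPKM in GV oocytes and 24.0 in FGSCs, in a span shared with other genes. Of the 11 measured autosomal oocyte Nlrp genes, 10 were 4-fold or more higher and none was 2-fold or more lower. Nlrp14 had the largest ratio, at 1082 FPKM in GV oocytes and 2.58 in FGSCs, and Nlrp4c the smallest, at 6.68 and 4.03 FPKM. Nlrp5 (Mater), a core member of the complex, was at 460 FPKM in GV oocytes and 1.31 in FGSCs. In the Oog family 10 of 13 listed autosomal members were measured, and all 10 were 2-fold or more higher, 7 of them by 4-fold. E330034G19Rik led with 571 FPKM in GV oocytes and 0.67 in FGSCs. None of the 10 exceeded 1 FPKM in FGSCs, so each entered the set through GV oocytes alone and could not have come out lower. Genes of the Nlrp and Oog families are near copies of each other, so the division of reads among them is uncertain.

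Several of these genes lay together on the chromosomes. By bins of 1 Mb (megabase), 45 of 1935 bins with a gene of the set held 5 or more genes 4-fold or more higher in GV oocytes, and 22 held as many that were 4-fold or more lower. On chromosome 9, between 109041967 and 109648603 (mm9), all 12 listed Fbxw genes, whose products carry F-box and WD40 domains, were 4-fold or more higher in GV oocytes, with a median log2 ratio of 6.56. Their summed level was 1868 FPKM in GV oocytes and 2.74 FPKM in FGSCs. Fbxw24 was the highest at 623 FPKM in GV oocytes and 0.91 in FGSCs, and Fbxw22 had the smallest ratio at 36.6 and 0.05 FPKM. On chromosome 12 all 6 Tcl1 genes, kin of an Akt-binding protein, were higher, from Tcl1b1 at 144 FPKM in GV oocytes and 0.21 in FGSCs to Tcl1b5 at 2.63 and 0. Omt2a and Omt2b, next to Ooep on chromosome 9, were at 291 and 358 FPKM in GV oocytes and at 0.74 and 0.58 FPKM in FGSCs. The bin with most genes past 4-fold, on chromosome 8 from 122000001 to 123000000, held 18 genes higher in GV oocytes, but these had only 4 distinct spans, because the table gives many genes there a common merged span. The Fbxw genes, like the Tcl1b genes, resemble each other closely, which leaves their single values uncertain.

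Genes of maternal effect and chromatin reprogramming were higher in 12 of 24 measured members and lower in 2, with a median of 1.10 that was 0.71 after scaling to the same sum. Dppa3 (Stella), which protects the maternal genome from demethylation, was at 4211 FPKM in GV oocytes and 462 in FGSCs. Npm1, the nucleolar relative of Npm2, was at 255 FPKM in GV oocytes and 706 in FGSCs. Of the DNA methylation machinery, named after its values were seen, Dnmt1, the maintenance methyltransferase, was at 303 FPKM in GV oocytes and 22.1 in FGSCs, and its partner Uhrf1 at 332 and 18.0 FPKM. Dnmt3l, the cofactor that sets maternal imprints, was at 19.2 FPKM in GV oocytes and listed at 0 in FGSCs, while Dnmt3a was at 147 and 80.9 FPKM. Tet3, the dioxygenase of the egg, was at 41.1 FPKM in GV oocytes and 1.10 in FGSCs, and Tet1, that of pluripotent and early germ cells, at 1.84 and 5.32 FPKM. Linker histones were split, with 3 of 7 measured members higher and 3 lower: beside H1foo, H1fx and Hist1h1c were higher, and H1f0, the replacement linker histone, was at 89.4 FPKM in GV oocytes and 228 in FGSCs. Replication-dependent core histones were lower in 17 of 34 measured members and higher in 8 (median -0.996, which turned to 0.36 among the few members left at FPKM > 10), with Hist1h2bc the furthest above at 156 FPKM in GV oocytes and 19.2 in FGSCs. Most of these histone messages lack a poly(A) tail, and the cDNA was primed with oligo(dT).

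Genes that store messenger RNA or control its translation were higher in 12 of 25 measured members and lower in 3 (median 0.95, and 0.54 after scaling to the same sum). Ybx2 (Msy2), the germ cell Y-box protein that coats stored messages, was at 571 FPKM in GV oocytes and 7.57 in FGSCs, but Ybx1, its widely expressed relative, was at 189 and 209 FPKM. Pabpc4, a poly(A)-binding protein, was at 235 FPKM in GV oocytes and 17.3 in FGSCs. Igf2bp1, an RNA-binding protein of embryonic tissues, was the furthest in the other direction at 0.245 FPKM in GV oocytes and 42.4 in FGSCs (log2 ratio -5.12). The pairs Eif4e1b and Eif4e and Pabpc1l and Pabpc1, and Cpeb1, were named after their values were seen. Eif4e1b, an oocyte form of the cap-binding protein, was at 196 FPKM in GV oocytes and 0.29 in FGSCs, and the general Eif4e at 61.4 and 64.1 FPKM. Pabpc1l, the poly(A)-binding protein of the egg, was at 99.1 FPKM in GV oocytes and 0.31 in FGSCs, and Pabpc1 at 67.8 and 100.4 FPKM. Cpeb1, which controls cytoplasmic polyadenylation, was at 144 FPKM in GV oocytes and 15.8 in FGSCs.

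Maternal mRNA decay factors were higher in 9 of 22 members and lower in 3, with a median of 0.00 that turned to -0.37 after scaling to the same sum. Btg4, the adaptor of the CCR4-NOT deadenylase in maturing eggs, was at 309 FPKM in GV oocytes and 0.55 in FGSCs. Of the related AU-rich element binding proteins, Zfp36 was at 69.5 FPKM in GV oocytes and 8.27 in FGSCs, whereas Zfp36l1 was at 45.0 and 227 FPKM. Cnot3, a subunit of the deadenylase, was at 77.9 FPKM in GV oocytes and 22.8 in FGSCs. In the small RNA pathway 3 of 11 measured genes were higher and 1 lower, against 2 higher and 3 lower after scaling to the same sum. Dicer1, which cuts miRNAs and the endogenous siRNAs of oocytes, was at 38.2 FPKM in GV oocytes and 3.63 in FGSCs. Dgcr8, needed for miRNAs but not for those siRNAs, was at 3.01 FPKM in GV oocytes and 18.7 in FGSCs. In the piRNA pathway 7 of 15 measured genes were higher and none lower by 2-fold, against 7 higher and 2 lower after scaling to the same sum. Gtsf1 was at 609 FPKM in GV oocytes and 3.87 in FGSCs, Mael at 74.1 and 10.6 FPKM, Tdrd5 at 63.6 and 6.66 FPKM, Fkbp6 at 140 and 144 FPKM and Ddx4 at 31.9 and 59.0 FPKM.

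Genes of meiosis were found on both sides. Of 26 measured genes of meiotic prophase, 12 were higher and 7 lower (median 0.00, and -0.34 after scaling to the same sum). Syce2, a central element of the synaptonemal complex, was at 736 FPKM in GV oocytes and 129 in FGSCs, in a span shared with 1 other listed gene. Sycp3, a lateral element, was at 79.9 FPKM in GV oocytes and 9.30 in FGSCs. Mnd1 and Psmc3ip, partners in strand exchange, were at 62.8 and 65.6 FPKM in GV oocytes and at 11.6 and 26.7 FPKM in FGSCs. Rec8, the meiotic cohesin, was at 0.21 FPKM in GV oocytes and 14.1 in FGSCs. The axis protein Hormad1, at 2.78 and 31.9 FPKM in the same order, Trip13, at 2.29 and 24.5 FPKM, and Stag3, at 4.43 and 22.8 FPKM, were named after their values were seen and were also lower in GV oocytes. Stra8, the gene that starts meiosis, was at 0.06 FPKM in GV oocytes and listed at 0 in FGSCs.

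Kinases and regulators of meiotic arrest and resumption were higher in 7 of 28 members and lower in 6 (median 0.10, and -0.31 with 10 members lower after scaling to the same sum). Mos, the kinase that keeps the egg in metaphase of the second division, was at 266 FPKM in GV oocytes and 0.29 in FGSCs. Wee2, the oocyte form of the kinase that inhibits Cdk1, was at 48.5 FPKM in GV oocytes and 0.19 in FGSCs, and the somatic form Wee1 was at 4.45 and 19.8 FPKM, a pair named after its values were seen. Cdc20, the activator of the anaphase-promoting complex, was at 27.7 FPKM in GV oocytes and 220 in FGSCs. The cyclins Ccnb1 and Ccnb2 were at 67.9 and 72.6 FPKM in GV oocytes and at 178 and 157 FPKM in FGSCs.

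Early germ cell and pluripotency genes were divided between the cell types. Of 18 genes of germ cell identity, 7 were higher in GV oocytes and 7 lower, with a median of -0.36, and of 20 measured pluripotency genes 6 were higher and 9 lower, with a median of -0.51. Utf1, a chromatin factor of pluripotent cells, was at 2.25 FPKM in GV oocytes and 395 in FGSCs (log2 ratio -6.93). Mycn, a Myc-family proto-oncogene, was at 0.425 FPKM in GV oocytes and 85.0 in FGSCs. Dppa5a, an RNA-binding protein of pluripotent and germ cells, was at 3368 FPKM in GV oocytes and 1041 in FGSCs. Tcl1 was at 1016 FPKM in GV oocytes and 81.8 in FGSCs. Pou5f1 (Oct4) was at 135 FPKM in GV oocytes and 60.4 in FGSCs. Ifitm1 (fragilis2) was at 78.9 FPKM in GV oocytes and 626 in FGSCs, and Ifitm3 (fragilis) at 118 and 222 FPKM, both interferon-induced membrane proteins used as marks of early germ cells. Named after their values were seen, Nanog was at 1.06 FPKM in GV oocytes and 49.8 in FGSCs, Dppa4 at 4.06 and 103 FPKM, Zfp42 (Rex1) at 0.29 and 17.7 FPKM and Sox2 at 0.23 and 3.60 FPKM. The specification factors Prdm1 and Prdm14 were at 1.06 and 0.01 FPKM in GV oocytes and at 8.28 and 7.14 FPKM in FGSCs, and Dnd1 and Nanos3, RNA-binding proteins that keep early germ cells alive, at 3.08 and 1.30 FPKM in GV oocytes and at 86.3 and 17.5 FPKM in FGSCs. Dazl was near equal at 82.6 FPKM in GV oocytes and 75.0 in FGSCs.

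**Figure D3:**
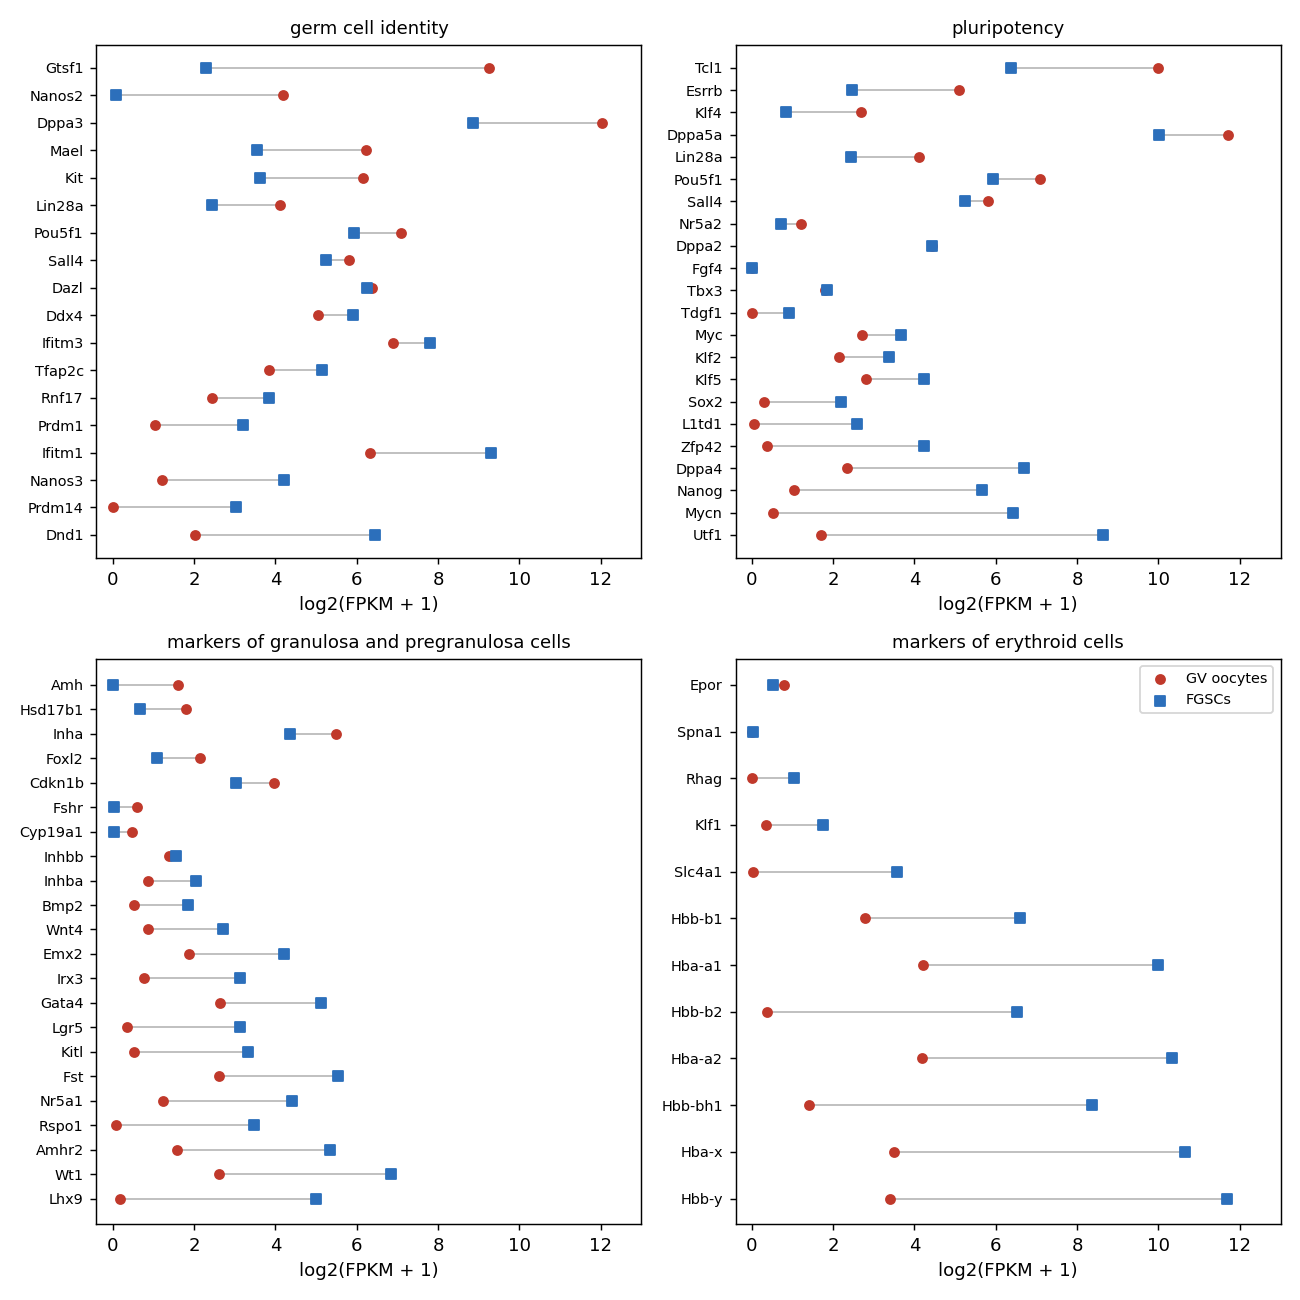
Levels, as log2(FPKM + 1), of the autosomal genes of 4 lists, ordered by the log2 ratio, with circles for GV oocytes and squares for FGSCs (1 pooled value each). Germ cell and pluripotency genes fall on both sides, from Gtsf1 and Tcl1 to Dnd1 and Utf1, whereas most of the erythroid markers and of the granulosa and pregranulosa markers lie higher in FGSCs.

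Markers used for spermatogonial stem cells, the male counterpart, were higher in GV oocytes in 6 and lower in 6 of 16 measured members, with a median of 0.32 that turned to -0.06 after scaling to the same sum. Uchl1, a ubiquitin hydrolase abundant in spermatogonia, was at 5025 FPKM in GV oocytes and 45.4 in FGSCs, in a span shared with 1 other listed gene. Etv5, a target of GDNF and FGF signalling, was at 0.65 FPKM in GV oocytes and 37.4 in FGSCs. Itga6 was at 23.9 FPKM in GV oocytes and 70.5 in FGSCs, Epcam at 20.4 and 53.5 FPKM and Sall4 at 55.2 and 36.8 FPKM. Zbtb16 (Plzf), Gfra1, Ret, Thy1 and Bcl6b did not exceed 1 FPKM in either cell type and were outside the set; they were named after their values were seen.

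Genes of DNA replication were lower in GV oocytes in 16 of 41 members and higher in 2 (median -0.70). Mcm6 of the replicative helicase was at 26.3 FPKM in GV oocytes and 152 in FGSCs. Pcna, the sliding clamp, was at 76.9 FPKM in GV oocytes and 126 in FGSCs, and Rpa2, a subunit of the single-strand binding protein, at 53.3 and 126 FPKM. Both subunits of ribonucleotide reductase, named after their values were seen, were lower: Rrm1 was at 3.40 FPKM in GV oocytes and 45.5 in FGSCs, and Rrm2 at 8.66 and 102 FPKM. Gins2 was the largest exception at 206 FPKM in GV oocytes and 38.6 in FGSCs, in the merged span on chromosome 8 described above. Of 31 genes of cell proliferation, 13 were lower and 5 higher (median -0.79). Cdk4, the kinase of the cyclin D pathway, was at 52.0 FPKM in GV oocytes and 783 in FGSCs. Cenpa, the centromeric histone, was at 63.6 FPKM in GV oocytes and 208 in FGSCs. Birc5 (survivin) was at 741 FPKM in GV oocytes and 134 in FGSCs, Ube2c, the ubiquitin-conjugating enzyme of mitotic exit, at 675 and 245 FPKM, and E2f1 at 45.7 and 4.49 FPKM. Mki67, the usual mark of dividing cells, was within 2-fold at 3.36 FPKM in GV oocytes and 4.22 in FGSCs, and was named after its values were seen.

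Glycolysis and glucose uptake showed the lowest median among the pathways of metabolism: 14 of 20 genes were lower in GV oocytes and 1 was higher (median -1.74, where 27.7% of all genes were lower by 2-fold). Eno1 (enolase) was at 55.4 FPKM in GV oocytes and 550 in FGSCs. Pkm2 (pyruvate kinase) was at 206 FPKM in GV oocytes and 677 in FGSCs, and Aldoa (aldolase) at 198 and 413 FPKM. The single gene higher in GV oocytes was Ldhb, the heart-type lactate dehydrogenase, at 5082 FPKM in GV oocytes and 604 in FGSCs. Its level was the second highest of any autosomal gene in GV oocytes. Ldha, the muscle-type subunit, named after its values were seen, was at 9.10 FPKM in GV oocytes and 187 in FGSCs. Among genes of oxidative and one-carbon metabolism, 12 of 27 were lower and 4 higher (median -0.68). The antioxidant enzymes were on both sides, with Sod1 at 2300 FPKM in GV oocytes and 659 in FGSCs, Prdx2 at 640 and 319 FPKM, Prdx1 at 796 and 552 FPKM and Gpx1 at 176 and 545 FPKM. Gclm, the regulatory subunit of glutathione synthesis, was at 97.8 FPKM in GV oocytes and 12.5 in FGSCs.

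Subunits of large housekeeping complexes were mostly within 2-fold as deposited, and scaling to the same sum put more of them lower in GV oocytes. Of 79 measured genes found by the names of cytosolic ribosomal proteins, 64 were within 2-fold, 15 were lower and none was higher (median -0.44), and after that scaling 30 were lower and none higher (median -0.86). Rpl41 was at 2240 FPKM in GV oocytes and 1603 in FGSCs, Rps29 at 2130 and 1348 FPKM, Rps27 at 1339 and 2067 FPKM and Rps19 at 697 and 1665 FPKM. Ribosomal protein genes have many processed copies, so their values are uncertain. Mitochondrial ribosomal proteins had a median of 0.06, which turned to -0.36 after scaling to the same sum, with 54 of 76 within 2-fold as deposited and Mrps21 at 397 FPKM in GV oocytes and 137 in FGSCs. Subunits of respiratory chain complex I had a median of 0.52, or 0.10 after that scaling, and 29 of 34 were within 2-fold as deposited, with Ndufa4 at 1116 FPKM in GV oocytes and 458 in FGSCs. Proteasome subunits had a median of -0.55, with 25 of 35 within 2-fold and 9 lower, against 17 lower and a median of -0.97 after that scaling, with Psma7 at 616 FPKM in GV oocytes and 459 in FGSCs. Of 46 translation initiation factors 26 were within 2-fold and 11 lower (17 after that scaling), but Eif1b was at 681 FPKM in GV oocytes and 59.9 in FGSCs and Eif5a at 580 and 1201 FPKM. Of 16 measured heat shock chaperones, 2 were higher and 6 lower, against none higher and 7 lower after that scaling. Hsp90aa1 was at 1874 FPKM in GV oocytes and 873 in FGSCs, and Hspa8, the constitutive Hsp70, at 230 and 1027 FPKM.

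Immediate-early genes, which respond within minutes to handling, growth factors or stress, were higher in GV oocytes in 15 of 23 members and lower in 2 (median 1.84, against 28.1% of all genes higher by 2-fold). Fos was at 114 FPKM in GV oocytes and 14.3 in FGSCs, Cyr61 at 92.3 and 7.03 FPKM, Ier3 at 89.8 and 11.9 FPKM and Ier2 at 145 and 96.7 FPKM. Klf2 was at 3.43 FPKM in GV oocytes and 9.42 in FGSCs. The 2 cell types were collected by different procedures, which cannot be told apart from the cell type. Transcriptional targets of signalling pathways were more often lower than higher, with 10 of 21 measured genes lower, 4 higher and 7 within 2-fold (median -0.97). The inhibitors of DNA binding that BMP signals induce did not all pass 2-fold: Id1 was at 18.6 FPKM in GV oocytes and 122 in FGSCs, Id2 at 28.5 and 91.4 FPKM and Id3 at 177 and 323 FPKM. Among the 4 higher genes, Nkd1, a Wnt target, was at 55.5 FPKM in GV oocytes and 18.7 in FGSCs, and Spry1, an FGF target, at 20.1 and 6.05 FPKM. Not all FGF targets were higher, since Etv5 and Dusp6 had log2 ratios of -4.54 and -3.26. Sp5 (-3.86), Etv4 (-3.76) and Lef1 (-3.44) lay between these 2 genes, and these 5 ratios were the lowest of the list.

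Imprinted genes, expressed from the allele of 1 parent, were lower in GV oocytes in 17 of 26 measured members, 16 of them by 4-fold or more, and higher in 2 (median -2.30, where 9.40% of all genes were lower by 4-fold). Mest, a maternally imprinted gene, was at 11.1 FPKM in GV oocytes and 335 in FGSCs. Phlda2, a growth-restraining gene of the placenta, was at 5.78 FPKM in GV oocytes and 281 in FGSCs. Igf2, the fetal growth factor, was at 15.1 FPKM in GV oocytes and 249 in FGSCs, and Cdkn1c (p57), a cell cycle inhibitor, at 27.3 and 230 FPKM. The noncoding H19 and Meg3, named after their values were seen, were at 16.2 and 2.37 FPKM in GV oocytes and at 219 and 114 FPKM in FGSCs. H13 was the largest exception at 115 FPKM in GV oocytes and 32.4 in FGSCs. Many imprinted genes are also expressed in mesenchyme and other somatic tissues of the young animal, and markers of such cells were higher in FGSCs as well. Their part in the difference of the imprinted genes was not tested.

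Markers of the somatic follicle cells (granulosa and pregranulosa) were lower in GV oocytes in 14 of 20 measured members and higher in 4 (median -2.35, with 1 higher after scaling to the same sum), and their summed level was 93.7 FPKM in GV oocytes and 377 FPKM in FGSCs. Wt1 was at 5.10 FPKM in GV oocytes and 113 in FGSCs, Fst at 5.10 and 45.3 FPKM and Amhr2 at 2.01 and 39.8 FPKM. Foxl2, the defining factor of granulosa cells, was low in both at 3.39 FPKM in GV oocytes and 1.13 in FGSCs, Amh was at 2.06 FPKM in GV oocytes and listed at 0 in FGSCs, and Inha was at 43.6 and 19.4 FPKM. Mesenchyme and theca markers were lower in 10 of 14 measured members (summed levels 70.7 FPKM in GV oocytes and 254 in FGSCs), with Vim at 9.93 FPKM in GV oocytes and 61.4 in FGSCs and Tcf21 at 0.20 and 31.6 FPKM. All 11 measured endothelial markers were lower, with sums of 26.0 FPKM in GV oocytes and 184 FPKM in FGSCs. Their levels in FGSCs ran from 1.72 FPKM for Tie1 to 35.6 FPKM for Plvap. Pecam1 was at 2.39 FPKM in GV oocytes and 29.5 in FGSCs, but also at 43.6 FPKM in MII oocytes. Plvap and Pecam1 lay in shared spans. Cdh5 was outside the set, at 0.38 FPKM in GV oocytes and 0.91 in FGSCs. Tie1 and Cdh5 were named after their values were seen. Leukocyte markers were lower in 7 of 9 measured members, with sums of 4.01 FPKM in GV oocytes and 37.7 FPKM in FGSCs, but Ptprc, the defining marker, was listed at 0 in GV oocytes and at 0.08 FPKM in FGSCs. Surface epithelium markers were lower in 5 of 10 members and higher in 1 (sums 102 FPKM in GV oocytes and 174 in FGSCs), with Upk3b at 0.07 FPKM in GV oocytes and 22.4 in FGSCs and Krt18 at 43.5 and 41.2 FPKM. Cumulus markers were near 0, with sums of 1.00 FPKM in GV oocytes and 2.96 FPKM in FGSCs and 5 of 8 genes listed at 0 in GV oocytes. In pooled bulk libraries, fewer cells of a type and less RNA per cell cannot be told apart.

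The globins held the largest differences in favour of FGSCs. All 11 measured erythroid markers were lower in GV oocytes, 8 of them by 4-fold or more (median -5.76), and the 13 listed markers summed to 63.5 FPKM in GV oocytes and 7702 FPKM in FGSCs. Hbb-y, the beta-type globin of embryonic red cells, was at 9.60 FPKM in GV oocytes and 3273 in FGSCs. This was the highest level of any autosomal gene in FGSCs and the lowest log2 ratio of the set (-8.27). Hba-x, the alpha-type embryonic globin, was at 10.2 FPKM in GV oocytes and 1599 in FGSCs, and Hbb-bh1, also embryonic, at 1.64 and 329 FPKM. The adult globins Hba-a1 and Hba-a2 were at 17.6 and 17.2 FPKM in GV oocytes and at 1007 and 1291 FPKM in FGSCs, and Hbb-b1 and Hbb-b2 at 5.89 and 0.30 FPKM in GV oocytes and at 95.5 and 90.6 FPKM in FGSCs. Other erythroid genes were far lower in FGSCs than the globins: Slc4a1 (band 3) was at 0.02 FPKM in GV oocytes and 10.9 in FGSCs, and Klf1 was at 0.28 and 2.37 FPKM. The E12.5 PGCs, which come from embryos, had 3378 FPKM of Hbb-y, 10452 FPKM of Hba-x and 504 FPKM of Hbb-bh1. The labels and methods place the FGSCs after birth, and the source of the embryonic globin RNA in them was not tested. The globin genes are near copies in pairs, Hba-a1 with Hba-a2 and Hbb-b1 with Hbb-b2, so their division is uncertain.

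Among the other genes with the largest ratios in favour of FGSCs was Ecm1, a secreted matrix protein, at 0.38 FPKM in GV oocytes and 58.4 in FGSCs. The small RNA genes Snord45b, Snord65, SNORD12 and AL672259.1 were listed at 0 in GV oocytes and at 93.7, 44.4, 41.4 and 88.3 FPKM in FGSCs. Each of these 4 small RNA genes shared its span with other listed genes, and a gene shorter than the sequenced fragments has an unstable FPKM. Hox genes, which mark position along the body, were lower in 13 of 19 measured members and none was 2-fold or more higher (median -1.26), with Hoxd9 at 6.22 FPKM in GV oocytes and 14.5 in FGSCs and Hoxc9 at 0.015 and 8.55 FPKM. Markers of somatic cells were higher in FGSCs beside them, as given above, and their part was not tested. Laminins of the basement membrane were higher in 4 of 8 measured members and lower in 1 (2 lower after scaling to the same sum). Their median of 1.64 was 0.695 without genes of shared spans. Lamb1 was at 46.7 FPKM in GV oocytes and 6.64 in FGSCs. Collagens were higher in 6 of 24 and lower in 9 (13 lower after that scaling), with Col1a1 at 10.4 and 28.8 FPKM and Col9a3 at 16.4 and 0.83 FPKM. Of the apoptosis regulators 9 of 22 measured were lower and 4 higher, with Trp53 (p53) at 18.8 FPKM in GV oocytes and 187 in FGSCs and Bax at 140 and 246 FPKM. H2-K1, a class I histocompatibility gene, was at 156 FPKM in GV oocytes and 3.15 in FGSCs, against Ifitm2 at 66.4 and 757 FPKM in the same list of 10 measured genes, of which 2 were higher and 3 lower, against 1 higher and 6 lower after scaling to the same sum. Junction and adhesion genes were higher in 5 and lower in 8 of 20, with Ctnnb1 (beta-catenin) at 18.7 FPKM in GV oocytes and 52.7 in FGSCs.

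**Figure D4:**
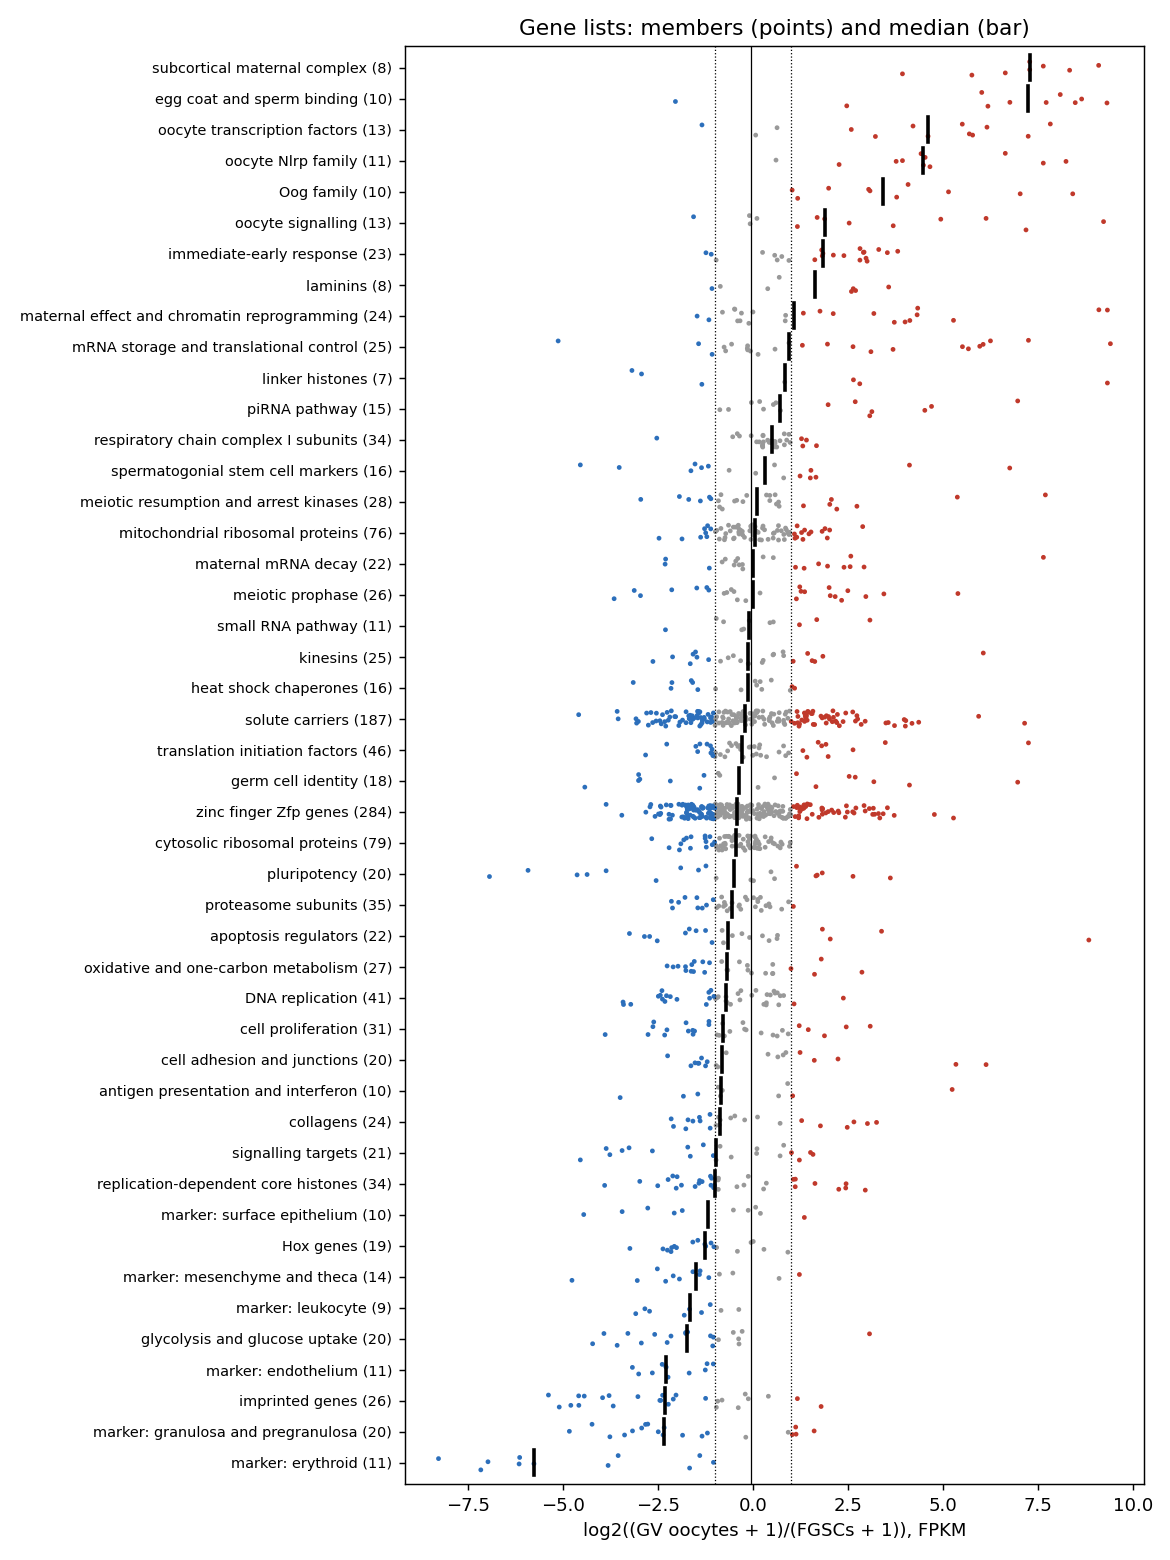
Log2 ratio of GV oocytes over FGSCs for the members of each gene list except cumulus markers, with 1 measured member (points, red where 2-fold or more higher and blue where lower; number measured in brackets) with the list's median (thick bar); the thin line is the median of all 13668 genes (-0.04) and the dotted lines are 2-fold. The subcortical maternal complex (median 7.29) and the egg coat (7.24) lie at the top, and the erythroid markers (-5.76), the granulosa and pregranulosa markers (-2.35) and the imprinted genes (-2.30) at the bottom.

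Large families defined by symbol held genes on both sides. Of 284 measured Zfp genes, 50 were higher and 85 lower (median -0.42), of 187 solute carriers 54 were higher and 57 lower (median -0.21), and of 25 kinesins 6 were higher and 7 lower (median -0.12). Within them, Zfp57, which maintains imprints in the embryo, was at 418 FPKM in GV oocytes and 9.78 in FGSCs. Slc30a3, a zinc transporter, was at 182 FPKM in GV oocytes and 0.28 in FGSCs, whereas Slc25a4, the mitochondrial ADP/ATP carrier, was at 67.2 and 458 FPKM. Kif17, a motor of microtubules, was at 111 FPKM in GV oocytes and 0.67 in FGSCs, in a span shared with 1 other listed gene.

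The lists of the 10 most abundant genes of the set differed between the 2 cell types, but several of those in FGSCs were also high in GV oocytes. Overlap beyond these lists was not counted. The 10 highest autosomal genes held 7.97% of the FPKM of the set in GV oocytes and 5.12% in FGSCs, and genes above 100 FPKM numbered 983 in GV oocytes and 710 in FGSCs. In GV oocytes they were Tmsb10, Ldhb, Uchl1, Zp3, Dppa3, Padi6, Zbed3, Dppa5a, Hexdc and Gm15698, between 5855 and 2854 FPKM. In FGSCs they were Hbb-y, Ftl1, Rps27, Malat1, Tmsb10, Ubb, Rps19, Pfn1, Rpl41 and Ppia, between 3273 and 1602 FPKM. Only Tmsb10 (thymosin beta 10), which binds actin monomers, was in both lists of 10, at 5855 FPKM in GV oocytes and 1882 in FGSCs. Ubb was at 2477 FPKM in GV oocytes and 1728 in FGSCs, and Dppa5a at 3368 and 1041 FPKM in the same order. Hexdc, a hexosaminidase, was at 3084 FPKM in GV oocytes and 8.34 in FGSCs, in a span shared with 2 other listed genes. Ftl1, the ferritin light chain, was at 684 FPKM in GV oocytes and 2508 in FGSCs, and the noncoding Malat1 at 384 and 2056 FPKM. Pfn1 (profilin), another binder of actin monomers, was near equal at 1669 FPKM in GV oocytes and 1640 in FGSCs, where the log2 ratio of 0.03 turned to -0.40 after scaling to the same sum, and so was the folding catalyst Ppia at 1194 and 1602 FPKM.

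By autosome, the share of genes 4-fold or more higher in GV oocytes ran from 10.1% on chromosomes 3 and 10 to 14.6% on chromosome 8, around the 12.6% of the whole set. The share of genes 4-fold or more lower ran from 6.73% on chromosome 5 to 12.1% on chromosome 18. No autosome had a median log2 ratio beyond -0.43, that of chromosome 18, or 0.21, that of chromosome 5. The longest annotated protein had a median of 428 residues for genes 4-fold or more higher in GV oocytes, 420 residues for those 4-fold or more lower and 450 residues for the whole set, with a length known for 82.9%, 90.0% and 89.0% of the genes.

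The genes set apart by this comparison were followed into the other cell types, whose values were not used to choose them. The 1721 genes 4-fold or more higher in GV oocytes had a median of 23.8 FPKM in GV oocytes, 27.3 in MII oocytes, 0.99 in FGSCs and 0.54 in E12.5 PGCs, and 87.9% of them exceeded 1 FPKM in MII oocytes and 44.9% in E12.5 PGCs. The 1285 genes 4-fold or more lower had a median of 1.20 FPKM in GV oocytes, 0.51 in MII oocytes, 15.5 in FGSCs and 11.4 in E12.5 PGCs, and 41.0% of them exceeded 1 FPKM in MII oocytes and 86.1% in E12.5 PGCs. Over the whole set, 71.1% of the genes exceeded 1 FPKM in MII oocytes and 71.1% in E12.5 PGCs. Single genes of the egg differed more: Bcl2l10 was at 824 FPKM in GV oocytes and 22843 FPKM in MII oocytes, Zp3 at 4780 and 790 FPKM, and H1foo at 2248 FPKM in GV oocytes and listed at 0 in MII oocytes. MII oocytes had the highest sum of FPKM of the 4 cell types, so levels across the columns are not on a common total.

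**Figure D5:**
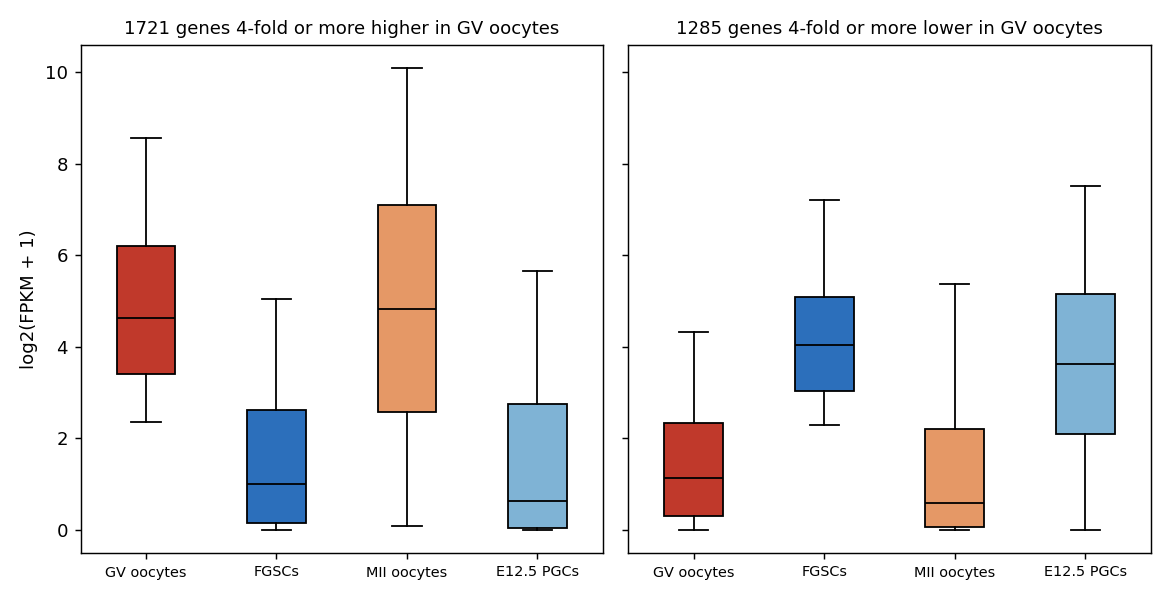
Levels, as log2(FPKM + 1), of the genes 4-fold or more higher (left, 1721 genes) and 4-fold or more lower (right, 1285 genes) in GV oocytes, in each of the 4 cell types. Boxes span the quartiles with the median as a line, and whiskers reach the 5 and 95 percentiles; the left medians are 23.8 FPKM in GV oocytes and 0.99 in FGSCs, with 27.3 in MII oocytes and 0.54 in E12.5 PGCs.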

How the data were processed

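RNA was measured in GV oocytes (2 libraries), FGSCs (2), MII oocytes (2) and E12.5 PGCs (3) after oligo(dT)-primed cDNA synthesis from cell lysates and PCR amplification, per the labels. The deposited tables hold 1 FPKM per gene and cell type, which the authors pooled over the libraries. The submitters' processing notes name TopHat2, Cufflinks 2.2.1 and mm9, the study's methods name mm10, and the coordinates in the tables were taken as mm9. The tables also hold the authors' own fold changes and p-values, which were not used. A cell type had the same values in every table that holds it. The files give no counts, so the depth, and the precision it sets, is unknown, and a value of 0 may be a failed estimate.

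Autosomal genes with FPKM > 1 in GV oocytes or FGSCs were kept, and log2 ratios were computed with a pseudocount of 1, which understates the difference of low genes. No test was made, since the pooled columns have no replicates, and past 2-fold or 4-fold is a description. In the set, 5951 genes shared their listed span with another gene, for which reads may not have been told apart, and whether the libraries or the counting kept the strand of a read was not given in the sources used here. The 47 gene lists came from textbook knowledge or gene symbols; the symbol lists hold a few genes of other function, such as Rps19bp1 among ribosomal proteins. AU018829 and Kcnq1ot1 had no match. The members, lists and tests were chosen with earlier results of these data known.

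Named genes were the 15 per direction whose log2 ratios were largest, at FPKM of at least 10 in the higher cell type, the 10 highest in each cell type, and, of each described list, the 4 members with the highest FPKM and the one furthest against the list's median; other members that complete a list or a family were named after their values were seen. Some genes are not reported here by name. Promoters (250 bases before to 50 after the start) and protein lengths came from RefSeq (GRCm38.p6) and GENCODE M21, matched by symbol and gene ID. Alternatives covered the FPKM threshold, pseudocount, scaling, fold, gene type, status and repeated symbols, and genes of short RNAs and of shared spans were left out as alternatives chosen after seeing the data. Tools were Python 3.11.15, numpy 2.4.6 and pandas 2.3.3.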

Additional observations from a re-analysis of the deposited data

How the results depend on the processing

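No paired analysis was possible because the deposited columns are pooled and carry no replicate, and for the same reason no replicate could be left out. The set of 13668 genes became 9106 at FPKM > 5, 6870 at FPKM > 10 and 7717 without genes of shared spans. Genes 2-fold or more higher in GV oocytes numbered 3837 and genes lower 3788; lower genes were 2523 at FPKM > 5, and higher and lower genes were 2243 and 1851 at FPKM > 10, 2183 and 2145 at FPKM > 1 in both cell types, 2267 and 1820 with a pseudocount of 5, 1721 and 1285 at 4-fold, and 2211 and 2177 without genes of shared spans. Other settings stayed within 1.5 times these counts. Scaling to the same sum without the top 100 genes of each column gave 3197 higher and 4621 lower, 40.9% higher. None of the 19 lists with a median past 2-fold changed direction under any of the 15 planned and 2 added alternatives. For several alternatives this was fixed in advance. A change of fold leaves the ratios as they are, and a pseudocount cannot change the sign of a gene's ratio. The scalings moved the median of all genes by -0.35, 0.02 and -0.28, too little to reverse these lists. Thresholds and filters leave a single gene's ratio as it is or drop the gene. Of 45 named genes only those with a small ratio could therefore change sign. Pfn1 did, with log2 ratios of -0.40 after scaling to the same sum and -0.31 after scaling without the top 100 genes, against 0.03. A median under 2-fold changed sign under at least 1 alternative in 13 of 47 lists. In 5 of them a scaling did so (maternal mRNA decay, meiotic kinases, meiotic prophase, spermatogonial stem cell markers and mitochondrial ribosomal proteins), and in the others a threshold, a gene type or shared spans did (linker and core histones, the small RNA pathway, germ cell identity, heat shock chaperones, adhesion, Zfp genes and kinesins).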

Other observations

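Families grouped by gene symbol, looked at after the values were seen and each with 8 or more measured members, held some that are not in the lists above. A symbol with more than 1 entry, such as Lsm3, Hdac4 and Ipo11, was counted once per entry. Mediator subunits, which link transcription factors to RNA polymerase II, were 2-fold or more higher in GV oocytes in 14 of 27 members and lower in 1 (median log2 ratio 1.05), with Med28 at 1090 FPKM in GV oocytes and 170 in FGSCs and Med30 at 214 and 35.8 FPKM. Genes with Lsm symbols, which include subunits of rings that bind U6 snRNA or decaying messages and also the translational regulators Lsm14a and Lsm14b of the mRNA storage list, were higher in 8 of 13 and lower in none (median 1.43), with Lsm10, of the U7 particle that processes histone messages, at 186 FPKM in GV oocytes and 37.0 in FGSCs. Dual-specificity phosphatases were higher in 11 of 19 and lower in 3, with Dusp7 at 93.8 FPKM in GV oocytes and 6.39 in FGSCs and Dusp6, a feedback target of FGF signalling, at 1.28 and 20.8 FPKM.

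SR splicing factors were lower in GV oocytes in 8 of 12 members and higher in 1 (median -1.49), with Srsf6 at 18.5 FPKM in GV oocytes and 155 in FGSCs and Srsf7 at 45.1 and 229 FPKM. Septins, cytoskeletal GTPases, were lower in 8 of 10 and higher in 1 (median -1.37), with Sept2 at 7.08 FPKM in GV oocytes and 70.5 in FGSCs. Histone deacetylases were lower in 5 of 9 entries and higher in none, and Hdac4 had entries with log2 ratios of -0.11 and -1.44. Hdac1 was at 45.3 FPKM in GV oocytes and 107 in FGSCs, and Hdac2 was near equal at 48.6 and 50.1 FPKM. Rrp genes of ribosomal RNA processing were lower in 5 of 8, with Rrp15 at 15.7 FPKM in GV oocytes and 83.7 in FGSCs. Among importins Ipo8 stood alone at 93.8 FPKM in GV oocytes and 12.4 in FGSCs, while 5 of 8 were lower. By annotated type, snoRNA genes were lower in 45 of 61 and higher in 8 (median -1.84). Most genes with Snora symbols shared their span with other listed genes, and the cDNA was primed with oligo(dT), so the snoRNA values are uncertain. The lincRNA genes were higher in 82 of 145 and lower in 32 (median 1.27).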
